A study of Mus musculus with 17 samples.

Results

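The series sequenced polyadenylated RNA from mouse liver, and the comparison described here is between wild-type animals of 2 years and of 2 months. Its members are the 5 libraries labelled WT_2year and the 6 labelled WT_2mon, 11 of the 17 libraries in all, chosen by their age and genotype labels. Both groups are B6, the common inbred black strain, have the genotype WT and no treatment that the labels name. The other 6 libraries, of 2-month-old mice with the genotype TG, were not used except in 1 alternative fit. Of the 2-year libraries, 1 and 2 came from females and 3 from a male in batch A, and 4 and 5 from males in batch B. Of the 2-month libraries, 1 and 2 came from males and 3 and 4 from females in batch A, and 5 and 6 from males in batch B. Batch A libraries come from UNC and the TruSeq polyA protocol of Illumina, those of batch B from Cornell and NEBNext Ultra II Directional. The females are therefore all of batch A, and a single old male represents its sex in that batch. Whether each library came from a separate animal is not stated, so p-values measure the spread between these libraries, which may be technical.

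The liver sets the composition of the blood, burns and stores fat, clears hormones and foreign compounds, and makes most complement and clotting factors. In mice many of its genes are expressed unequally in the sexes. The pattern of growth hormone release, steady in females and pulsed in males, sets this bias through the transcription factor STAT5. With age, livers of mice are known to gain lymphocytes and plasma cells, to accumulate cells that carry senescence markers and to lose part of their male-biased expression.

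Values are the authors' normalized counts per gene, on a scale shared by the libraries. Their sum ran from 29552390 to 44543936 per library and the 10 highest genes took 18.6% to 23.9% of it. The read depth is unknown, so no counting interval was computed. All libraries held the hepatocyte markers: Alb, the gene of serum albumin, lay between 992460 and 3250100. The insulin gene Ins2, the keratin Krt5 and the trypsinogen Try4 were at or below 1.21 in all 11. The heart myosin Myh6 stood at 56.6 in young library 5 and the muscle creatine kinase Ckm at 20.4 in old library 4. Cela1, a pancreatic elastase gene, lay between 74.5 and 2858. In bulk tissue, fewer cells of a type and less RNA per cell cannot be told apart.

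Old and young livers differed past the threshold in a small set of genes. Old livers had more message of fatty acid handling genes (Acot3, Acot4, Cd36), of the retinoic acid hydroxylase Cyp26a1, of immunoglobulin genes and of the cell cycle inhibitor Cdkn2a. They had less of E-cadherin (Cdh1), of the repressor Bcl6, of the clotting factor gene F11 and of the sorting receptor Sort1. In limma's test on log2(value + 1) with batch and sex as covariates, 34 of 14447 genes passed an adjusted p of 0.05, or 0.235% of those tested. A gene that passed is referred to below as called, and the words rose and fell are kept for called genes. Of these, 25 were higher in old liver (0.173%) and 9 lower (0.0623%). Log2 fold changes ran from 1.12 to 5.88 among the rises and from -4.67 to -1.14 among the falls. The median over all genes was -0.005, and 49.6% were above 0. At an unadjusted p under 0.05 there were 1537 genes, 815 higher and 722 lower. A further view without a model counted genes whose libraries do not overlap: in 52 genes (0.36%) all 5 old libraries lay above all 6 young ones, and in 36 (0.249%) all lay below. With so few libraries some genes separate by chance alone. That share was not computed, so these counts are a description and no evidence of a difference. Of the 34 called genes, 19 were of this kind, 13 higher and 6 lower. The same libraries chose these genes, so a lack of overlap among them, here and below, is largely built in and no separate support.

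The calls lie close to the threshold. Adjusted p ran from 0.0177 to 0.0493, and 24 of the 34 values lay between 0.045 and 0.05. With batch as the only covariate 3 genes were called (0.0208%), namely Ighm, Cdh19 and 4930452B06Rik. When single libraries were left out the count ran from 0 to 19. Of the 34 genes, 16 were called in none of these 11 fits, among them Cdkn2a, Acot4, F11 and Sort1. Only 2, Raet1e and Ighm, were called in 5 or more. By direction, 33 of the 34 had the same sign in each batch alone, and 32 in each sex alone. These parts hold the same libraries that chose the genes, so like signs are largely built in and are no separate support. Olfr701 had no value in batch B alone or in females alone, and BC021767 none in females. All 34 were also called, in the same direction, in the authors' deposited table, which rests on the same libraries and calls 280 genes.

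**Figure D1:**
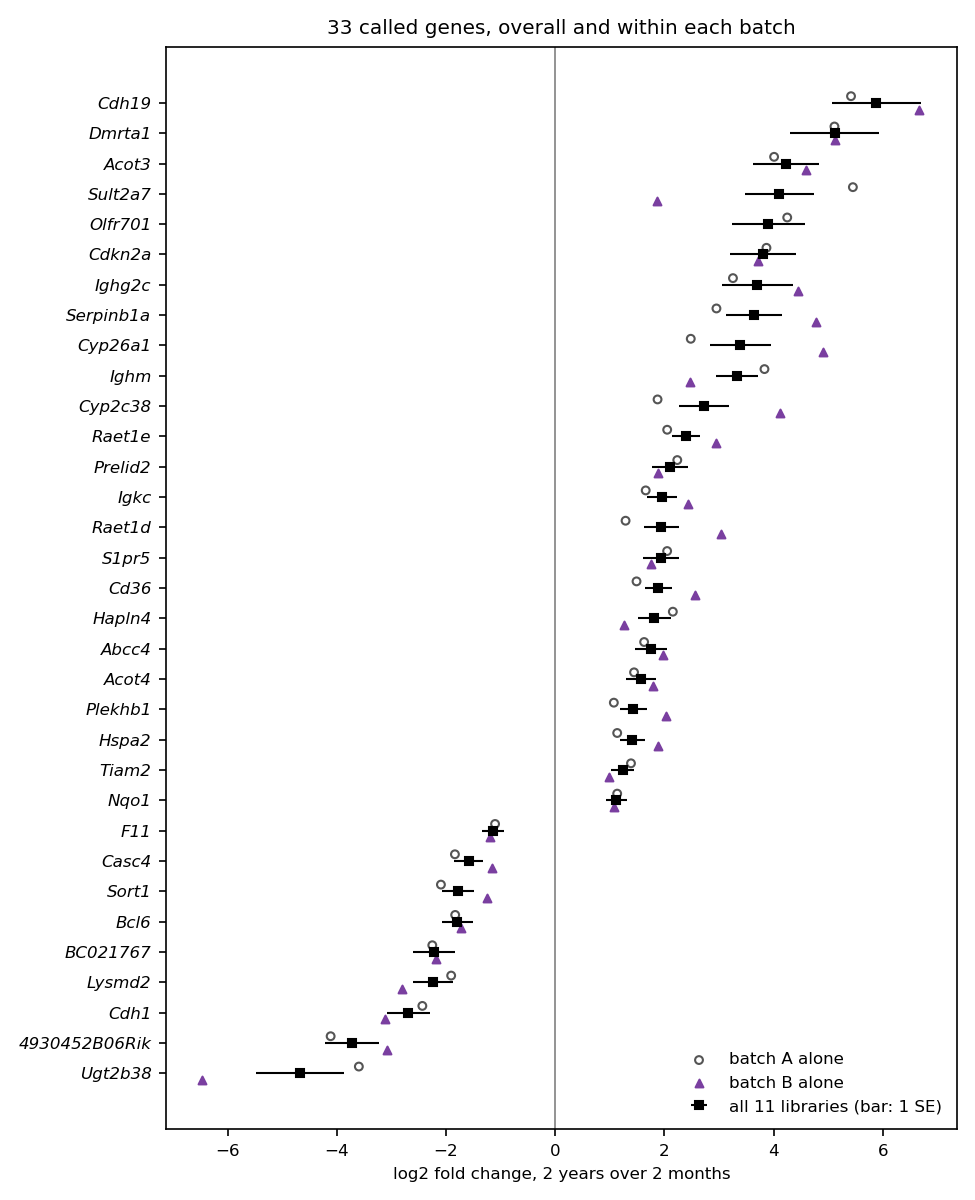
Log2 fold change of 2-year over 2-month liver (horizontal axis) for 33 of the called genes. Squares are the fit of all 11 libraries with bars of 1 SE, open circles batch A alone and triangles batch B alone; 32 genes have values in both batches, all on the same side of 0, and Olfr701 has no batch B value.

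Acyl-CoA thioesterase genes and a fatty acid uptake gene were among the metabolic genes that rose. Acot3 and Acot4 encode thioesterases of the peroxisome that release fatty or dicarboxylic acids from coenzyme A. Acot3 (chr12:84052144-84060402, mm10) stood at 3258, 3772, 1188, 1048 and 371 in old libraries 1 to 5. In young libraries 1 to 6 it stood at 11.1, 8.63, 979, 624.98, 18.98 and 32.1. Within each sex every old library lay above every young one, and only the old male of library 5 lay below the young females. The log2 fold change was 4.23 ± 0.61 (SE; limma adjusted p = 0.0328), or 5.47 in males and 2.16 in females. Its neighbour Acot4 (chr12:84038379-84048601), whose gene ends 3543 bases before Acot3 begins, had 1633, 1415, 1414, 853 and 561 in old libraries and 266, 242, 953, 846, 159 and 249 in young ones. It rose by 1.57 ± 0.27 (adjusted p = 0.0493), and the old males of batch B lay below the higher of the young females. Both genes are close copies, so reads may be split between them and single values are uncertain. Acot2, of the same family, had 1.70 ± 0.37 and was not called (adjusted p = 0.140).

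Cd36, the scavenger receptor that takes up long-chain fatty acids, had 6719, 5287, 3664, 1728 and 1598 in old libraries. The young ones had 835, 807, 3493, 2385, 289 and 272, so that the old males of batch B lay below both young females and above all young males. In males alone the log2 fold change was 2.40 and in females 1.05. Among 39 genes of fatty acid uptake and oxidation 2 rose, Cd36 and Acot3, and none fell. The list's median was 0.21, with 8 members higher at an unadjusted p under 0.05 (5.64% of all genes) and 1 lower (5.0% of all genes). Without old library 3 the median was 0.05. Carnitine acetyltransferase, Crat, had 1.503 ± 0.37 and was not called. Of 31 lipid synthesis genes none was called and the median was 0.19, or 0.02 without old library 1. The adipogenic receptor Pparg had 0.75 ± 0.18 and the elongase Elovl3 -3.02 ± 0.77, where the young males of batch A stood at 34457 and 30817 and no other library above 1889. Of 30 cholesterol genes none was called, with a median of 0.17 that was -0.20 in males alone, 0.03 without young library 3 and 0.42 without old library 3.

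**Figure D2:**
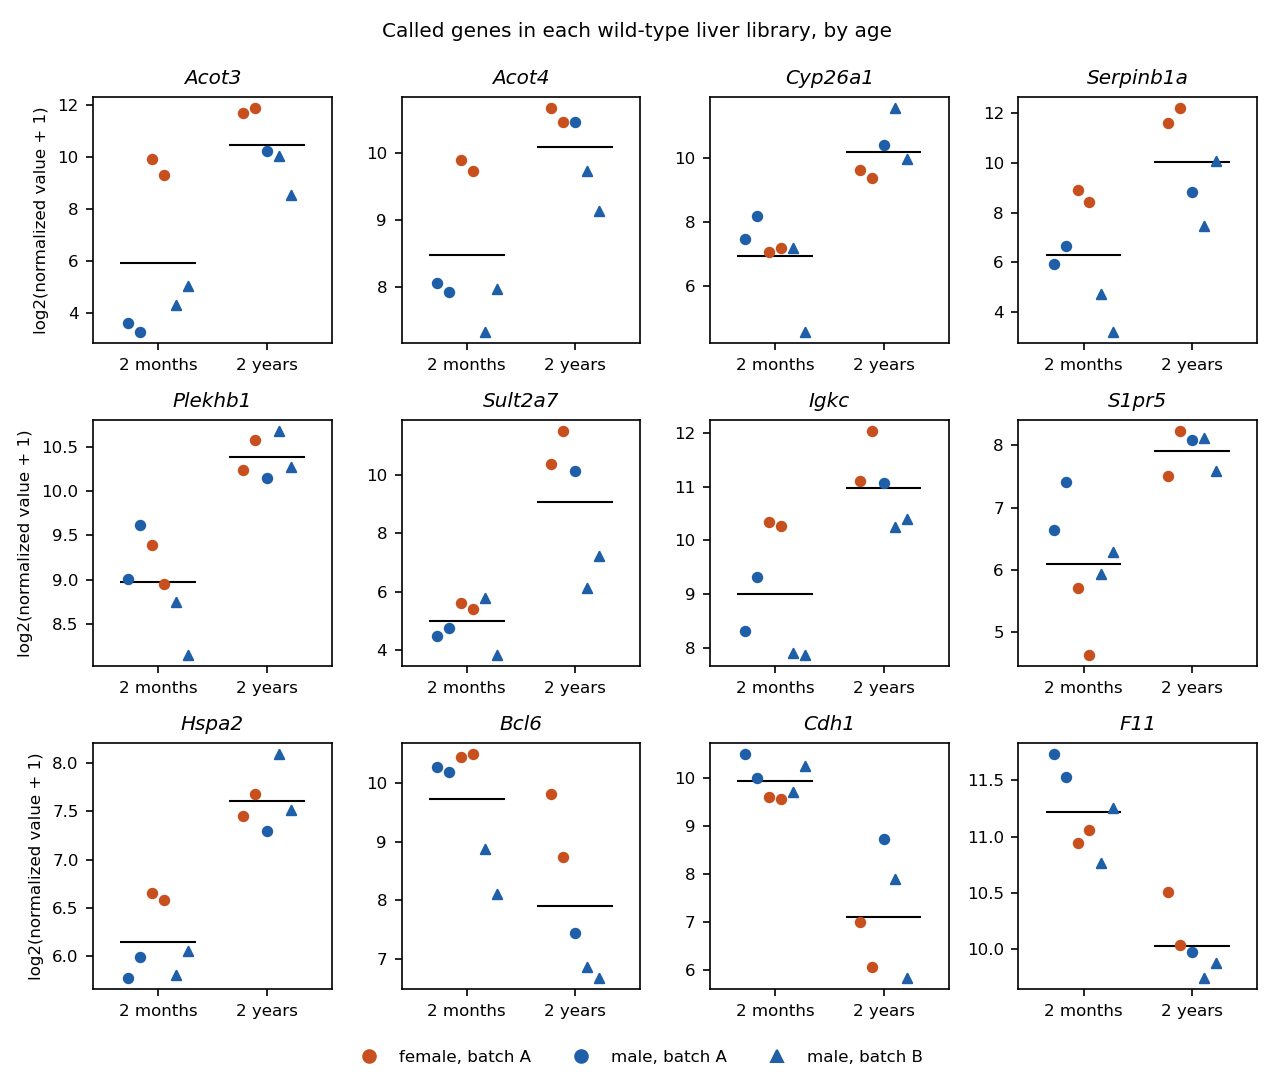
Log2(normalized value + 1) of 12 called genes in each library (vertical axes), by age. Circles are batch A, triangles batch B, orange females, blue males and lines the group means; Hspa2, Cyp26a1, Cdh1 and F11 show no overlap of the ages, while for Acot3, Acot4 and Serpinb1a old males reach the level of young females.

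Cyp26a1, which clears retinoic acid and is itself induced by it, had 795, 664, 1373, 3042 and 1003 in old libraries against 174, 287, 131, 144, 144 and 22.3 in young ones. No old library overlapped a young one. Its log2 fold change was 3.39 ± 0.56 (adjusted p = 0.0491; batch A 2.48, batch B 4.91), where young library 6 was lowest. The sequence before its start site is shown because it carries a form of the element through which retinoic acid receptors are known to act. In this spelling the half-site AGTTCA is repeated after 5 bases of any kind. Of 32851 RefSeq promoters of GRCm38.p6, 7 held this spelling in the 250 bases before the start, on either strand (0.0213%). Of the 19 called genes with a promoter in that table Cyp26a1 alone did. No other spelling of the repeat was searched, so these counts do not show how rare the element is. The stretch lies at chr19:37697558-37697807 on the plus strand, and the capitals mark the match, which is on the opposite strand and begins 32 bases before the start.

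Cyp26a1: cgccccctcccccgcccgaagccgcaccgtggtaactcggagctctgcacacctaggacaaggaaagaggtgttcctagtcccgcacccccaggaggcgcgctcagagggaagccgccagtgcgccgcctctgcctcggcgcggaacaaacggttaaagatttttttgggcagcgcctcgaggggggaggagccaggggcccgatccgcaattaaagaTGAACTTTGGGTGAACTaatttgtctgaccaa

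Bcl6 encodes a zinc-finger repressor that binds DNA sites shared with STAT5. It had 901, 427, 172, 115 and 101 in old libraries and 1240, 1167, 1391, 1439, 465 and 276 in young ones. Within each sex and batch the old libraries lay below the young ones, while the old females overlapped the young males of batch B. Bcl6 fell by 1.79 ± 0.29 log2 units (adjusted p = 0.0491; batch A -1.83, batch B -1.72). Upstream sequences of its start sites are printed because STAT5 and BCL6 share the palindrome TTCNNNGAA, which 7.02% of the RefSeq promoters held. Among the 19 called genes with a promoter in the table Bcl6 alone held it, a share no higher than that over all promoters. Start 1 (chr16:23988853-23989102, minus strand) had 1 match, and start 2 (chr16:23981284-23981533, minus strand) had 3, beginning 168, 122 and 88 bases before the start, all in capitals. A match describes the letters and does not show that a factor was bound.

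Bcl6 start 1: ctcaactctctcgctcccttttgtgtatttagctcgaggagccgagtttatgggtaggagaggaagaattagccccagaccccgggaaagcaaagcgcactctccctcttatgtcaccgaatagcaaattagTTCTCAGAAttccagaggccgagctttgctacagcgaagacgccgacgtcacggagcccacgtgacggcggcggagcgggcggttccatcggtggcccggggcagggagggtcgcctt
Bcl6 start 2: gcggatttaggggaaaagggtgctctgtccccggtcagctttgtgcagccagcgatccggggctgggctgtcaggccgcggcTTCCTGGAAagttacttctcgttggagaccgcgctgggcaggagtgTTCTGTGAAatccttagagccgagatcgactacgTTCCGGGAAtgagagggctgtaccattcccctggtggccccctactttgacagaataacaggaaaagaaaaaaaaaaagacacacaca

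Bcl6 was the single called member of 18 growth hormone and IGF axis genes, whose median was 0.24, or 0.05 without old library 3. The receptor Ghr had -0.42 ± 0.20, with old libraries from 5200 to 12321 and young ones from 9411 to 14802. Igf1, the circulating growth factor, had 0.15 ± 0.21. The feedback inhibitor Socs3 had 1.12 ± 0.46, with old libraries 3 and 4, both male, at 1410 and 960 and the others at or below 408. None of these 3 was called.

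Sex-biased liver genes moved together in direction, although few members passed. Of 22 male-biased genes 1 fell, Ugt2b38, and the fitted value was negative in all 22. The median was -2.74 on the log2 scale, or -3.28 among males and -1.43 among females. The mean log2 level of the list lay between 13.7 and 14.3 in the 4 young males. In old males it was 11.8 in library 3, 8.36 in library 4 and 12.005 in library 5. Young females had 10.3 and 8.58, and old females 7.46 and 7.94, so that old library 4, a male, stood below both young females and above the old females. Without library 4 the median was -1.82. Ugt2b38, a glucuronosyltransferase, had 5.98, 1.19, 47.3, 3.38 and 90.4 in old libraries against 1101, 1146, 52.8, 16.3, 2002 and 1563 in young ones. The selenium-binding protein Selenbp2 (-3.85 ± 0.69, adjusted p = 0.0568) and the transporter Slco1a1 (-5.48 ± 0.99, adjusted p = 0.0569) lay just outside the threshold. The pheromone carrier Mup20 had -3.41 ± 1.18 and was not called.

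Of 27 female-biased genes 1 rose, Acot3, and all 27 fitted values were above 0. The median was 2.21, or 3.54 in males alone and 0.59 in females alone. The mean log2 level was 12.9 and 12.3 in old females and 11.9 and 11.8 in young females. Old males had 8.77, 8.74 and 5.27, and young males 3.65 to 5.16. Library 5 thus lay next to the highest young male, while libraries 3 and 4 stood between the sexes. A1bg, a plasma glycoprotein gene of females, was at 538 and 244 in old libraries 3 and 4 and at 6.13 in library 5, against at most 45.3 in young males. Its log2 fold change of 4.17 ± 0.96 did not pass. The 2 lists were chosen with earlier results of these data known, so their directions are a description. Sult2a7, a sulfotransferase of hydroxysteroids that is in neither list, had 1341, 2906, 1113, 69.5 and 148 in old libraries and 21.6, 26.0, 48.7, 41.5, 54.5 and 13.4 in young ones. It rose by 4.11 ± 0.64 (adjusted p = 0.0491; batch A 5.45, batch B 1.86), with no overlap between the ages. Sult2a genes are close copies, and the value of 1 member is uncertain.

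**Figure D3:**
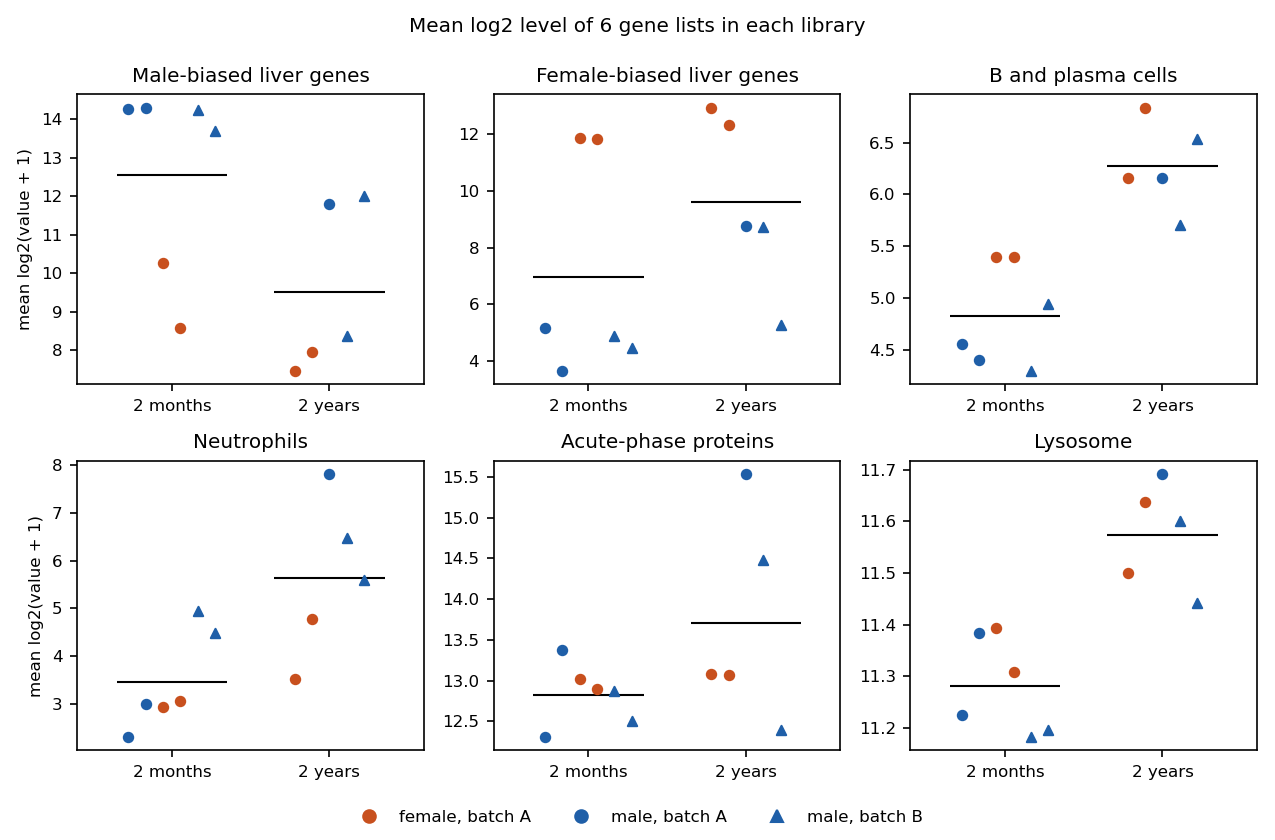
Mean log2(value + 1) of the tested members of 6 gene lists in each library (vertical axes), by age, with circles for batch A, triangles for batch B, orange for females, blue for males and lines for group means. Old males lie below young males in the male-biased list, the old libraries lie above the young ones in the B and plasma cell and lysosome lists, and old library 3 is highest in neutrophil and acute-phase genes.

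Drug and redox metabolism contributed Nqo1, Abcc4 and Cyp2c38. Nqo1 (chr8:107388225-107403206), a quinone reductase and a classic NRF2 target, had 599, 1012, 269, 254 and 213 in old libraries and 119, 138, 382, 306, 112 and 106 in young ones. Old males lay below both young females and above every young male, and Nqo1 rose by 1.12 ± 0.19 (adjusted p = 0.0493; batch A 1.14, batch B 1.09). Abcc4, an efflux pump of bile acids and cyclic nucleotides, rose by 1.76 ± 0.29, from 13.1 to 100 in young and from 65.4 to 365 in old libraries. These were the 2 rises among 30 NRF2 and glutathione genes, whose median was 0.11 and of which 6 were higher and 1 lower at an unadjusted p under 0.05. The glutathione transferase Gstp1 was the 1 lower, at -1.75 ± 0.55 and not called, with young males between 95251 and 304880 and all others at or below 42441. Of 42 cytochrome P450 genes of families 1 to 3, Cyp2c38 rose and the median was 0.26, or 0.07 without old library 3. Cyp2c38 had 5024, 6966, 1823, 1573 and 553 in old libraries and 401, 774, 1292, 1724, 33.9 and 80.9 in young ones, and is 1 of several near-identical copies. Of 26 glucuronosyl- and sulfotransferases, Ugt2b38 fell and the median was 0.11. Of 24 genes of bile acid synthesis and transport, Abcc4 rose and the median was -0.04, while Cyp7a1, the rate-limiting enzyme of bile acid synthesis, had 1.51 ± 0.53 and was not called.

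Immunoglobulin genes were higher in old liver. Igkc (chr6:70726435-70726966), the constant region of the kappa light chain, had 2199, 4193, 2151, 1219 and 1351 in old libraries against 316, 641, 1297, 1236, 238 and 233 in young ones. It rose by 1.95 ± 0.28 (adjusted p = 0.0328), and only old library 4 lay below a young one. The heavy chains Ighm (3.32 ± 0.38) and Ighg2c (3.70 ± 0.64) rose as well. Ighm did not overlap between the ages, with 1038 to 3756 in old and 86.6 to 346 in young libraries. Ighg2c had 692, 336, 580, 375 and 28.8 in old libraries and at most 97.9 in young ones, so that old library 5 lay inside the young range. Of 19 B and plasma cell genes these 3 rose, and the median was 1.17 (batch A 0.82, batch B 1.89). Of the defining markers, Ms4a1 had 1.70, Cd79a 0.56, Jchain 0.77 and Mzb1 0.64 as log2 fold changes, none of them called. The summed level of these 4 ran from 134 to 1076 in old and from 105 to 675 in young libraries. The part that the number of B and plasma cells has in the 3 rises was not tested.

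Other immune genes were few. Serpinb1a (chr13:32842092-32851185), an inhibitor of neutrophil proteases that hepatocytes also make, had 3076, 4667, 457, 174 and 1079 in old libraries and 60.5, 99.3, 482, 339, 25.8 and 8.28 in young ones. It rose by 3.64 ± 0.52 (adjusted p = 0.0328; batch A 2.95, batch B 4.78). Within each sex the old libraries lay above the young ones. The neutrophil markers S100a8, S100a9, Retnlg and Ngp summed to 83.3 to 1824 in old and 24.1 to 416 in young libraries, with the maximum in library 3, and their part in the rise was not tested. Of 14 neutrophil genes none was called, 12 were higher at an unadjusted p under 0.05, and the median was 1.97, or 1.29 without old library 3. The resistin family member Retnlg had 3.33 ± 0.77 and the peroxidase Mpo 3.06 ± 0.85, each with its highest value, 89.2 and 126, in old library 3. S1pr5 (chr9:21242912-21248443), a receptor for sphingosine 1-phosphate found on natural killer cells and endothelium, had 181 to 299 in old and 23.8 to 168 in young libraries without overlap and rose by 1.94 ± 0.34 (adjusted p = 0.0493). Of 22 T and NK cell genes none was called, none was past an unadjusted p of 0.05 in either direction, and the median was 0.12. The defining markers Cd3e, Cd8a, Cd4 and Ncr1 summed to 35.6 to 432 in old and 35.7 to 91.5 in young libraries, and Ncr1, the NK marker, was at or below 8.96 in all. The part of T and NK cells in the rise of S1pr5 was not tested.

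Raet1e and Raet1d encode stress ligands of the NKG2D receptor. Raet1e had 531, 641, 276, 263 and 319 in old libraries against 52.1, 35.6, 191, 180, 37.2 and 36.1 in young ones, with no overlap. It had the smallest p of all genes, a log2 fold change of 2.39 ± 0.26 and an adjusted p of 0.0177. Raet1d rose by 1.95 ± 0.32, from 79.9 to 715 in young and from 509 to 2078 in old libraries. The annotated span of Raet1e (chr10:22158569-22374139) covers all of Raet1d on the same strand and the family holds near-identical copies, so both rises may count the same reads.

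No acute-phase, macrophage, chemokine, interferon or MHC gene of the lists was called. At an unadjusted p under 0.05, 8 of 28 acute-phase genes were higher and 1 lower, against 5.64% and 5.0% of all genes. Acute-phase genes had a median of 0.82, with 26 above 0 and Serpina3m at 1.36 ± 0.28. Their mean log2 level was 15.5 and 14.5 in old males 3 and 4 and 12.3 to 13.4 in the other 9 libraries, and without old library 3 the median was 0.39. Medians were 0.56 for 21 monocyte and recruited macrophage genes, 0.37 for 18 Kupffer cell genes, 0.35 for 25 chemokines and their receptors, 0.23 for 30 interferon-stimulated genes, 0.03 for 17 MHC class I genes and -0.03 for 10 MHC class II genes. Without old library 5 the chemokine, interferon, monocyte and MHC class II medians were 0.08, -0.14, 0.33 and -0.53. Without old library 4 the interferon median was 0.50 and those of MHC class II and class I 0.40 and 0.21, and without young library 6 that of Kupffer cells was 0.19. Trem2, a receptor of lipid-associated macrophages, had 1.83 ± 0.46, with its 3 highest values, 447, 144 and 120, all in batch B. In 24 sinusoidal endothelial genes Cd36 rose, and 9 were higher and 1 lower at an unadjusted p under 0.05. The endothelial median was 0.42, with the Fc receptor Fcgr2b at 0.87 ± 0.20. The defining markers Stab2, Lyve1 and Clec4g had 0.69, 0.00 and 0.56 and were not called.

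Cdkn2a (chr4:89274471-89294653), which encodes the cell cycle inhibitors p16 and p19, had 21.4, 55.5, 39.9, 17.1 and 24.8 in old libraries against 2.03, 1.11, 0, 5.77, 1.71 and 0 in young ones. It did not overlap between the ages and rose by 3.81 ± 0.60 (adjusted p = 0.0491; batch A 3.87, batch B 3.71). The called gene nearest to it is Dmrta1, 384783 bases away on chromosome 4, which encodes a DM-domain transcription factor. Dmrta1 had 69.7 to 148 in old libraries and was listed at 0 in 3 young ones, the highest of which had 9.68. Its fitted log2 fold change was 5.12 ± 0.81. Cdkn2b, the other inhibitor gene of the locus, lay below the filter, with 3.08 to 16.9 in old and 0 to 19.8 in young libraries. Cdkn2a was the single call among 15 cell cycle inhibitors and senescence regulators, whose median was 0.21, or 0.02 without old library 5. Cdkn1a (p21) had 0.43 ± 0.57 (batch A -0.47, batch B 1.95), and the lamin Lmnb1 0.51 ± 0.26. Of 17 senescence-associated secreted factors none was called, 6 were higher and none lower at an unadjusted p under 0.05, and the median was 0.83, or 0.36 without old library 5. The adhesion molecule Icam1 had 1.04 ± 0.30 and the elastase Mmp12 1.72 ± 0.55. For 19 p53 targets the median was 0.22, for 30 DNA repair genes -0.04, for 11 telomere genes -0.01 and for 22 proliferation genes 0.02, each with no call.

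The remaining rises belong to no common list. Hspa2 (chr12:76404176-76406938), an HSP70 family chaperone known from testis, had 174, 205, 157, 273 and 182 in old libraries and 53.7, 62.8, 99.6, 95.1, 54.9 and 65.3 in young ones. It rose by 1.41 ± 0.23 (adjusted p = 0.0491) and was the single call among 20 heat shock genes, whose median was -0.19. Plekhb1, a membrane protein with a pleckstrin homology domain, rose by 1.43 ± 0.24, from 283 to 783 in young and from 1132 to 1635 in old libraries. Tiam2, an activator of the GTPase Rac, rose by 1.24 ± 0.21, with 77.4 to 240 in young and 275 to 508 in old libraries. Prelid2, of the PRELI family of mitochondrial lipid carriers, rose by 2.10 ± 0.34, from 6.95 to 29.6 in young and from 32.8 to 137 in old libraries. Cdh19, a cadherin of neural crest derivatives, was listed at 0 in 4 young libraries and had 0.631 and 9.75 in the other two, against 37.0 to 366 in old ones. Hapln4, a hyaluronan link protein, rose by 1.82 ± 0.31, with old library 5 at 114 inside the young range of 39.6 to 128. Olfr701, an olfactory receptor gene on chromosome 7, had 19.2, 7.33, 101, 7.34 and 11.1 in old libraries and was listed at 0 in 4 young ones, with 2.84 as the highest. Its neighbour Olfr702 was listed at 0 in all 6 young libraries and had 3.13 to 23.4 in the old ones. The 2 receptors are neighbours of one family, so the reads behind them may be shared.

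Of the 9 falls, 6 showed no overlap between the ages, among them Cdh1 and F11. Cdh1 (chr8:106603351-106670246), E-cadherin, which joins epithelial cells, had 128, 66.2, 424, 238 and 56.3 in old libraries against 1450, 1022, 776, 757, 837 and 1214 in young ones. It fell by 2.69 ± 0.39 log2 units (adjusted p = 0.0358; batch A -2.43, batch B -3.11). It was the single call among 13 cholangiocyte genes, with a median of -0.48 (batch A -0.07, batch B -1.75). The defining bile duct markers Krt7, Krt19 and Epcam had -0.32, -0.54 and -0.69 and were not called, and their summed level was 64.6 to 141 in old and 85.9 to 427 in young libraries. F11 (chr8:45241174-45262031), clotting factor XI, had 1452, 1049, 1008, 856 and 938 in old libraries against 3407, 2955, 1967, 2135, 1742 and 2441 in young ones. It fell by 1.14 ± 0.19 (adjusted p = 0.0491; batch A -1.10, batch B -1.20). Of 37 complement and coagulation genes it was the single call, and the median was 0.15. The membrane attack components C8b, C6 and C8a had -1.45 ± 0.27, -1.01 ± 0.21 and -1.43 ± 0.30 and were not called, with adjusted p of 0.0665, 0.114 and 0.130.

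Sort1 (chr3:108284082-108361511), a sorting receptor for lipoproteins in the secretory pathway, had 111, 48.7, 134, 118 and 126 in old libraries against 677, 349, 309, 407, 315 and 268 in young ones. It fell by 1.78 ± 0.29 on the log2 scale and was the single call among 28 apolipoprotein and lipoprotein assembly genes (median -0.13; batch A 0.18, batch B -0.57). The phospholipid transfer protein Pltp had 1.15 ± 0.31 and was not called. Casc4, a Golgi membrane protein gene, fell by 1.58 ± 0.26, from 82.5 to 231 in young and from 27.5 to 73.9 in old libraries. The LysM-domain gene Lysmd2 fell by 2.24 ± 0.37, with old libraries from 6.24 to 22.7 and young ones from 27.9 to 84.5. The gene 4930452B06Rik fell by 3.72 ± 0.49, with old libraries from 1.20 to 9.16 and young ones from 32.1 to 94.2. None of these 4 genes overlapped between the ages. The pseudogene BC021767 fell by 2.22 ± 0.38, with the groups overlapping, at 0 to 31.8 in old and 8.81 to 131 in young libraries.

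Gene lists were also read against the scaling of the libraries: scaled to equal totals, the median of all genes was 0.13 instead of -0.005. The medians of 11 of the 54 lists then changed sign, each of them within 0.13 of 0, and 37 did so in at least 1 of the settings run. With 1 library left out, 48 of the 54 medians changed sign or moved by over 1.5 times for at least 1 choice of library. The exceptions were the lists of female-biased, B and plasma cell, sinusoidal endothelial, lysosomal, iron handling and cholangiocyte genes.

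Of the pathways often discussed in ageing, the sirtuin, mTOR and autophagy lists had medians near 0, and others lay further away. Of 27 genes of sirtuins and NAD metabolism, 29 of mTOR, FoxO and AMPK signalling and 29 of autophagy none was called, with medians of -0.06, -0.03 and -0.02. The AMPK subunit Prkab1 (0.90 ± 0.24) and the kinase Akt1 (0.69 ± 0.21) had the smallest p in their list and were not called. None of 31 lysosomal genes was called: 28 were above 0, 10 were higher and none lower at an unadjusted p under 0.05, and the median was 0.27 (batch A 0.24, batch B 0.30). The cathepsin Ctsc had 0.99 ± 0.25, the ceramidase Asah1 0.93 ± 0.27 and the saposin precursor Psap 0.52 ± 0.15. Of 26 unfolded protein response genes 23 were below 0 and 5 were lower at an unadjusted p under 0.05. Their median of -0.33 was 0.08 in females alone. Iron genes had a median of 0.46 over 21 members, with 7 higher and 1 lower at an unadjusted p under 0.05. Among them the hepcidin inducer Bmp6 had 1.53 ± 0.40, its inhibitory SMAD Smad6 1.16 ± 0.35, and Hamp2, a hepcidin copy, -1.71 ± 0.49. Of 25 gluconeogenesis and glycogen genes none was called, and the kinase Sik1 came nearest at 1.12 ± 0.20 (adjusted p = 0.0520). Collagen chains had a median of -0.26 over 22 members, with 6 lower and none higher at an unadjusted p under 0.05 (batch A -0.56, batch B 0.22). Col1a1 had -1.35 ± 0.40 and Col3a1 -1.42 ± 0.40, and the methyltransferases Dnmt3a and Dnmt3b had 0.13 ± 0.31 and -0.13 ± 0.35. None of these was called. Medians were -0.17 for 32 other matrix genes, -0.14 for 23 stellate cell and fibroblast genes and -0.08 for 12 genes of DNA methylation. They were 0.03 for 21 hepatocyte markers, 0.05 for 25 pericentral genes, 0.16 for 32 genes of the urea cycle and amino acid breakdown, 0.14 for 12 fetal liver genes and -0.02 for 18 tumour-associated genes, of which Abcc4 rose. For 22 circadian genes the median was 0.30, with the deadenylase Noct at 1.87 ± 0.38 and not called, and for 19 immediate early genes 0.53, or 0.15 without old library 3.

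**Figure D4:**
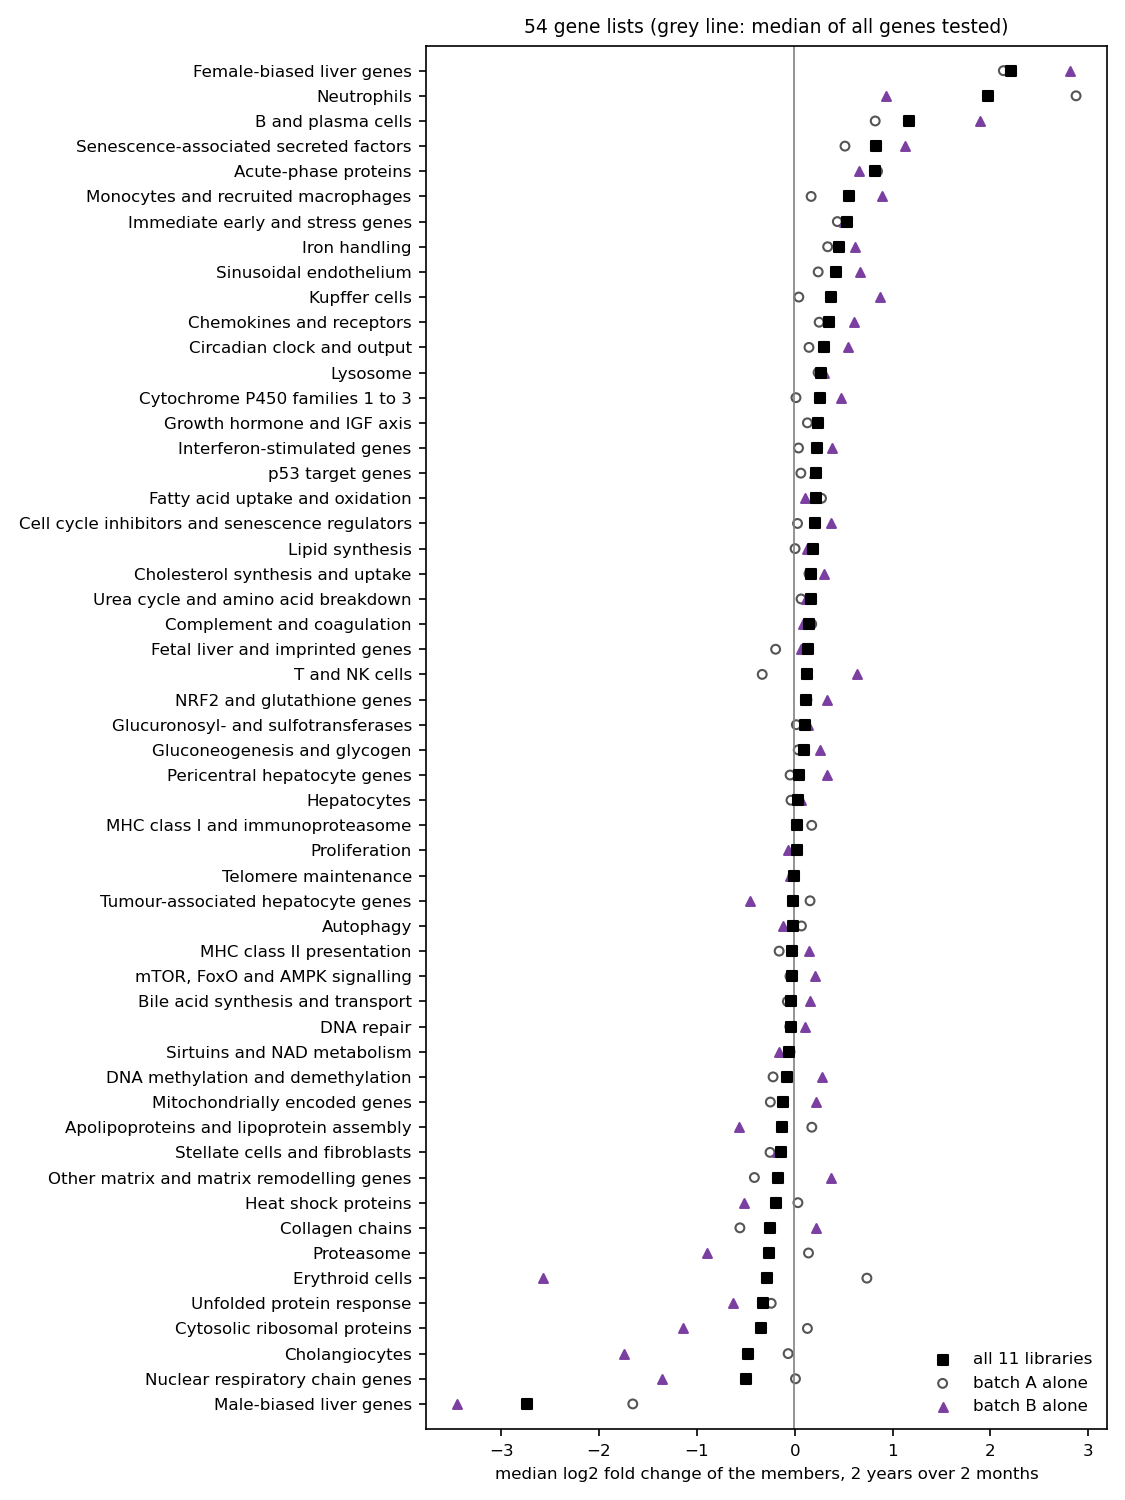
Median log2 fold change of the tested members (horizontal axis) of each of 54 gene lists, with squares for all 11 libraries, open circles for batch A alone and triangles for batch B alone. The female-biased and male-biased lists lie at the ends, at 2.21 and -2.74, and the respiratory chain, ribosomal, proteasome and erythroid lists differ in sign between batches.

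Among genes of energy metabolism and protein synthesis, list medians had unequal values in the batches, while the age by batch interaction was called for 0 of 46 nuclear respiratory chain genes, 0 of 49 ribosomal protein genes and 2 of 31 proteasome genes, against 1.25% of all genes. None of them was called for age. The median of 46 nuclear respiratory chain genes was -0.50 (batch A 0.01, batch B -1.35). For 49 ribosomal protein genes it was -0.34 (batch A 0.13, batch B -1.14), and for 31 proteasome genes -0.27 (batch A 0.14, batch B -0.89). The mean log2 level of ribosomal protein genes was 14.6 and 14.4 in young libraries 5 and 6 and between 12.2 and 13.5 in the other 9. Red cell genes followed the same libraries: Hbb-bs, a beta globin, stood at 85864 and 85186 there and at or below 36237 elsewhere. Of 8 erythroid genes none was called, with a median of -0.28 (batch A 0.74, batch B -2.57). The 13 mitochondrially encoded genes had the opposite signs (batch A -0.25, batch B 0.21). The part that red cell content has in these levels was not tested.

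**Figure D5:**
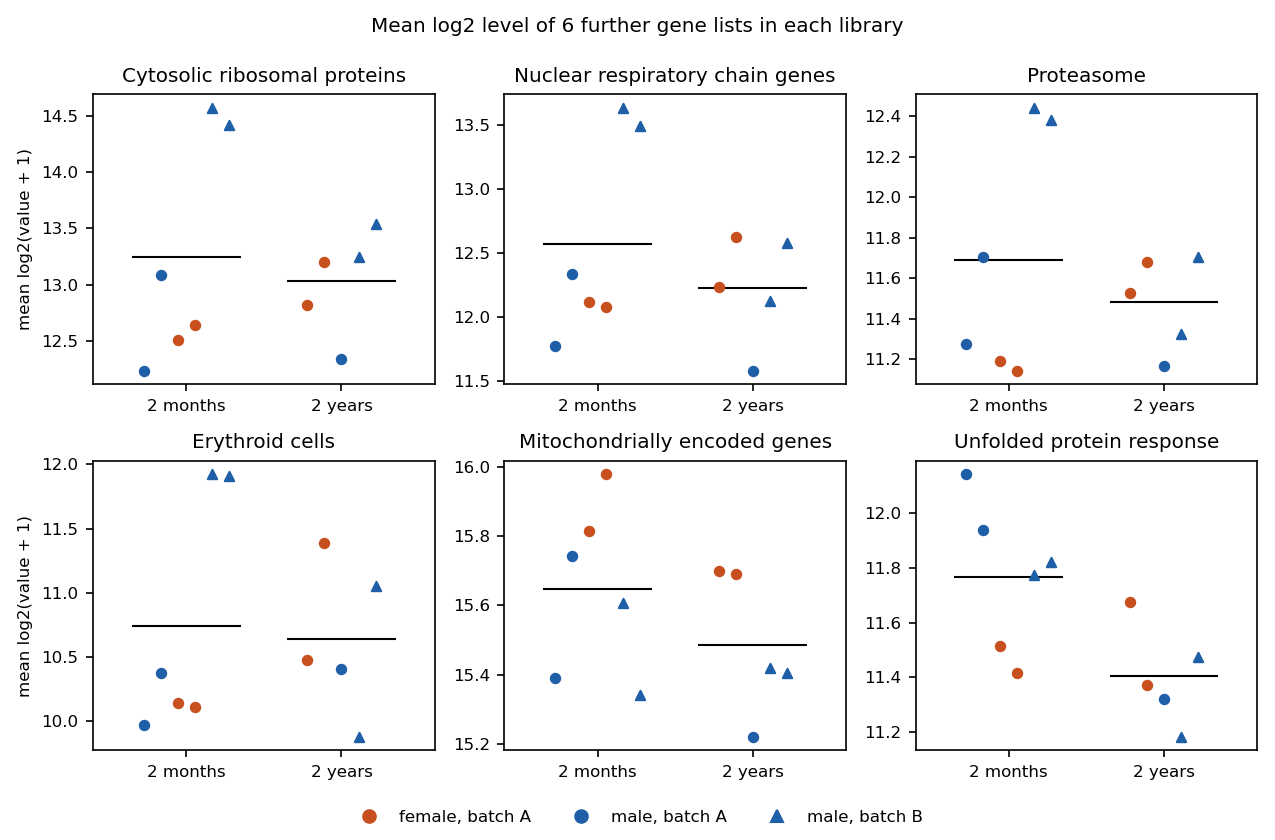
Mean log2(value + 1) of 6 further gene lists in each library (vertical axes), by age, with circles for batch A, triangles for batch B, orange for females, blue for males and lines for group means. The young libraries of batch B stand highest in ribosomal protein, respiratory chain, proteasome and erythroid genes, and not in mitochondrially encoded or unfolded protein response genes.

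The age difference itself was then tested for being unequal between sexes and between batches. An interaction of age with sex was called for 1 gene (0.00692%), Cyp2c54, a cytochrome P450 of the Cyp2c cluster. It was at 1001 and 572 in old females against 11777 and 10964 in young females, while old males had 15801, 10584 and 4674 and young males 1136 to 8551. The difference of the 2 age effects was 5.64 ± 0.61 (adjusted p = 0.0297), from -3.91 in females to 1.73 in males. At an unadjusted p under 0.05 there were 3368 genes. An interaction of age with batch was called for 181 genes (1.25%), with 72 more positive and 109 more negative in batch B. None of the 34 genes called for age was called in either. With so small a share of all genes called, this does not show that their age effects were equal. Sult2a7 (limma adjusted p = 0.0535) and Raet1d (limma adjusted p = 0.0546) lay just outside the threshold for age by batch. Among the genes with the smallest p were Myo10, a motor protein gene, at 3045 and 3547 in the young libraries of batch B and at 354 to 605 in all others, and Psd4, an ARF6 exchange factor gene, at 750 and 808 against 42.0 to 103. Each interaction was fitted without the other, and all females are of batch A, so the 2 tests are partly mixed. A gene called in the batch test may differ by sex, and the reverse. Only old library 3, the only old male of batch A, separates them. Without that library sex and batch cannot be told apart in these tests, and both called 1163 genes. The batch interaction also rested on single libraries, with 0 genes called without old library 1 or young library 3 or 4 and 1831 without old library 5.

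Libraries of the old group differed among themselves slightly more than those of the young group. The median over genes of the residual SD was 0.497 in old and 0.436 in young libraries on the log2 scale, and 67.4% of genes had the larger value in the old. Old library 4 held the largest residual of the 11 for 4110 genes, ahead of old library 2 with 2290. The median absolute residual was 0.437 and 0.363 in old libraries 4 and 2. It was 0.194 to 0.219 in old libraries 1, 3 and 5, below the young range of 0.239 to 0.318, so the larger spread did not hold for every old library. Without library 4, 19 genes were called for age, of which 14 were among the 34.

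The series title concerns miR-29, a microRNA family that lowers messages with a match to its seed, and its mature sequences are printed to show the seed, bases 2 to 8 in capitals, from RefSeq (GRCm38.p6). The 3 members share it and differ further on.

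mmu-miR-29a-3p: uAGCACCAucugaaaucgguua
mmu-miR-29b-3p: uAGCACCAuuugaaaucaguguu
mmu-miR-29c-3p: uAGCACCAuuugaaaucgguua

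The 4 precursor genes were listed at 0 in all 11 libraries, so the level of the microRNA was not measured here. Of 12876 tested genes with an annotated 3′ UTR, 2165 (16.8%) held the complement TGGTGCT in their longest one. Their median log2 fold change with age was 0.03, against 0.01 for the genes without. Of the 33 called genes with a 3′ UTR, 5 held a match, of which 4 rose (Cyp2c38, Dmrta1, Olfr701 and Tiam2) and 1 fell (Sort1). The site of Sort1 begins at base 423 of a UTR of 4268 bases and is shown because Sort1 alone of these 5 fell, with the match in capitals.

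Sort1: ctcccaccgcataccTGGTGCTgtc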

How the data were processed

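Polyadenylated RNA was measured in 11 wild-type liver libraries. A Norgen kit gave the RNA, and libraries of both batches ran on a NextSeq2000, per the labels' protocols. The tools Salmon 0.6.0, STAR 2.5.3a and DESeq2 and the build mm10 appear in the submitters' processing notes. Their roles, the annotation and the strand setting are not given in the sources used here. Normalized signal for 48440 genes, scaled by DESeq2 per the file's name, was deposited by the authors. Only 9.8% to 40.2% of low values lay on whole steps, so reads were not recovered. They also deposited a table of log2 fold changes, standard errors, test scores, and p-values and adjusted p-values, used as an alternative.

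Genes with a mean of at least 10 (14447; 33993 were not tested) were fitted with limma 3.58.1 in R 4.3.3 (trended eBayes) on log2(value + 1), with batch and sex as covariates. Sex was added to the batch term because the authors' table name states both and the sexes are unequal between the ages. Two-sided p-values were adjusted by Benjamini-Hochberg over all genes tested and called below 0.05. Interactions used the same values. The fit was tested on simulated data with additive batch and sex effects, no interactions and like spread in all libraries, simpler than these data. All called genes but 1, which is not reported here, are named, and of each list its called members or those of smallest p. The members and the 54 lists were chosen with earlier results of these data known. Coordinates and 3′ UTRs are of GENCODE M21 (48058 IDs matched), promoters and microRNAs of RefSeq. No 2 libraries were identical. Python 3.11.15 was used for tables.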

Additional observations from a re-analysis of the deposited data

Results flagged for a closer look

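In 7 of 88 groups of values of called genes and interaction genes, 1 library lay far from the others of its age by Dixon's criterion, where chance gives about 1 in 20. In young liver these were library 3 for Cdh19 (9.75, with the others at or below 0.631), library 4 for Cdkn2a (5.77, with the others at or below 2.03), library 1 for Sort1 (677.3, next 407) and library 1 for Olfr701 (2.84, next 0.783). In old liver these were library 2 for Sort1 (48.7, next 111), library 1 for Lysmd2 (22.7, next 10.6) and library 3 for Olfr701 (101, next 19.2). No library held more than 2 of the 7.

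Age effects that differed by an interaction test, each fitted without the other interaction, were the following. Cyp2c54 differed between the sexes by 5.64. Between batches the largest tested differences by p, batch B minus batch A, were 5.89 for Gm2423, -3.07 for Myo10, -2.63 for Mfhas1, 9.08 for Gm20528 and -3.68 for Psd4. Gm2423 was listed at 0 in both young libraries of batch B and lay between 27.1 and 202 in the other 9. Gm20528 was at 792 and 366 in the old libraries of batch B and listed at 0 in the other 9. Mfhas1 stood at 1982 and 2016 in the young libraries of batch B and between 224 and 555 elsewhere.

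Below the filter, 3 genes were listed at 0 in all young and above 0 in all old libraries, and 0 genes the other way. These were Olfr702 (3.13 to 23.4), the antisense gene Gm16094 (0.570 to 2.20) and a clone-named transcript on chromosome 8 (0.510 to 1.69).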

How the results depend on the processing

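With age, 34 genes were called. The count was 10 with an offset of 0.5, 14 without a filter on low values, 8 at a mean of at least 50, 20 after quantile normalization, 84 with library weights, 3 with batch only, 3 without covariates, 21 with all 17 libraries, 14 in batch A, 1 in batch B, 4 in males, 94 in females (17 of the 34; added after seeing the data) and 280 in the authors' deposited table. Scaled to equal totals it was 22, of which 86.4% were higher, against 73.5% in the fit reported. Leaving out single libraries gave 0 to 19: 0 without young library 1, 2 or 4 (1326, 1443 and 1490 at an unadjusted p under 0.05), 2 without old library 3 (0 of the 34) or young library 5, 3 and 4 without old 2 and 1, 6 without young 3 or 6, 12 without old 5 and 19 without old 4. With the replicate number as a replicate block it was 1. Same-numbered libraries were not treated as pairs. Correlations of their deviations from the age means ran from -0.228 to 0.594, and 1 of 5 old libraries correlated best with its own number. These deviations still hold sex and batch, so they cannot show whether libraries were paired. None of the 34 genes changed direction in any setting run, but every setting used libraries that had chosen these genes.

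For age by sex, 1 gene was called. The count was 2 with an offset of 5, 4 at equal totals, 2430 with weights and 0 to 1163 without single libraries: 0 without old 1 or any of young 1 to 5, 2, 3 and 5 without old 2, young 6 and old 4, 46 without old 5 and 1163 without old 3. For age by batch, 181 genes were called. The count was 114 without a filter, 629 at equal totals, 30 after quantile normalization, 2034 with weights and 0 to 1831 without single libraries: 0, 1, 3 and 12 without old 1 (also young 3 or 4), young 1, old 4 and old 2, 33 and 48 without young 5 and 6, 1163, 1589 and 1831 without old 3, young 2 and old 5. Groups did not overlap for 88 genes. The count was 134 without a filter, 1058 in males alone and 123 to 207 without single libraries, where fewer libraries are compared. The cause of the other shifts was not tested.

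The read depth is unknown, so counting error has no stated limit, and the number of libraries, with 2 females a group and 1 old male in batch A, limits the precision. Sex and batch are unequal between the ages.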
